A study of Homo sapiens with 8 samples.

Results

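The genes of the mitochondrial ribosomal proteins were taken by symbol, as every gene named MRPL or MRPS with a number and at most a final A, B or C. The rule found 78 genes among the 58302 in the files, 49 with an MRPL and 29 with an MRPS symbol, and no expression value entered it. They were followed in 8 RNA sequencing libraries of A549, an established human lung adenocarcinoma cell line. The 4 groups of 2 libraries were A549 cells with a short hairpin RNA against the receptor tyrosine kinase AXL (AXL shRNA), A549 cells with a control hairpin (control shRNA), A549 cells given 40 nM of the AXL inhibitor TP-0903, and A549 control cells. The AXL shRNA and control shRNA libraries carry the numbers P15 and P3, and the TP-0903 and control libraries carry P17 and P4. The labels say neither what the number stands for, nor the treatment time, the vehicle, the hairpin sequences or whether the hairpin cells were clones or pools. The stated aim of the series was to look for resistance pathways after TP-0903.

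The mitochondrial ribosome makes the few proteins encoded by mitochondrial DNA, all of them parts of the respiratory chain complexes or of ATP synthase. Its RNA parts are transcribed inside the organelle, whereas its proteins are encoded in the nucleus, made in the cytosol and imported. Some of these proteins have counterparts in bacterial ribosomes and others are found in mitochondria only. The large subunit joins amino acids and carries the exit tunnel, and the small subunit holds the mRNA and reads its codons. Symbols do not always give the subunit: the proteins of MRPS30 and MRPS18A sit in the large subunit, and the protein of MRPS36 is now regarded as a part of a dehydrogenase complex. By structure, 51 of the 78 genes belonged to the large subunit and 26 to the small one, with MRPS36 in neither.

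Library totals ran from 30067011 to 44217023 expected counts. All 78 genes passed the filter on low counts, and none was at 0 in any library. Levels of 1 gene across libraries are given as CPM, counts scaled by the library total and by trimmed mean of M values (TMM). AXL itself, the targeted gene, stood at 55.4 and 63.0 CPM in the AXL shRNA libraries P15 and P3, against 85.1 and 139.5 CPM in the control shRNA libraries. Its log2 fold change of -0.92 ± 0.41 (SE) did not pass the test (edgeR adjusted p = 0.12). In the drug comparison AXL had 280 and 153 CPM with TP-0903, against 216 and 105 CPM in control cells (edgeR adjusted p = 0.543). Of 5 epithelial markers 4 were higher with AXL shRNA (80.0%, against 18.5% of all tested genes). Among them the keratin KRT18 had 7809 and 6622 CPM in AXL shRNA cells, against 2269 and 1945 CPM in control shRNA cells. The part of these markers in the results below was not tested. PTPRC and CD3E of leukocytes, DCN and COL1A2 of fibroblasts and VWF and KDR of the endothelium were near or at 0 in every library. These are only part of the 5 markers read for each cell type. Of the 5, 3 for leukocytes, 3 for fibroblasts and 1 for the endothelium passed the filter on low counts. Of the markers of those cell types that passed the filter, 2 of 3 for leukocytes (CD79A higher, CD14 lower), 2 of 3 for fibroblasts (COL1A1 and LUM, both higher) and none of 1 for the endothelium were called with AXL shRNA, the highest at 36.7 CPM. Of all tested genes, 37.5% were called in that comparison.

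All 78 genes were expressed, within a 25.9-fold range of mean levels. On the TPM scale, which allows for transcript length, their means over 8 libraries ran from 14.9 to 385 with a median of 65.0, and 73 of the 78 lay between 20 and 200 TPM. MRPL33, a small large-subunit protein with a bacterial counterpart, was the highest, with 135 and 152 TPM in AXL shRNA cells, 378 and 394 TPM in control shRNA cells, 588 and 540 TPM with TP-0903, and 438 and 457 TPM in control cells. It was the highest member on average but not in every group, since MRPL12 and MRPS12 exceeded it in AXL shRNA cells. MRPL12, the counterpart of the bacterial stalk protein that receives translation factors, had 199 and 185 TPM in AXL shRNA cells, 192 and 195 TPM in control shRNA cells, 210 and 205 TPM with TP-0903, and 262 and 242 TPM in control cells. MRPS12, a protein of the decoding centre, averaged 194 TPM. The lowest were MRPS31, at 13 to 16.7 TPM over all libraries, MRPL1, the protein of the stalk beside the tRNA exit site, at 8.32 to 29.9 TPM, and MRPL57 at 9.97 to 23.1 TPM. MRPS31 shares its sequence with pseudogenes whose counts came to 35.7% of its own, so that its level is uncertain.

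Summed over all 78 genes, the level was lowest in AXL shRNA cells and highest in control cells. The sums were 4640 and 4701 TPM in AXL shRNA libraries P15 and P3, 6037 and 6082 TPM in control shRNA libraries, 6443 and 6277 TPM in TP-0903 libraries P17 and P4, and 7135 and 6935 TPM in control libraries. The 4 pairs of libraries did not overlap. Set against the library with the same P number, AXL shRNA cells held 76.9% and 77.3% of the control shRNA sum, and TP-0903 cells held 90.3% and 90.5% of the control sum. A sum weighs the highest members most, and on the TPM scale the median of all genes was itself lower with AXL shRNA. In the same pairs the members had median log2 CPM ratios of -0.139 and -0.182 with AXL shRNA and -0.155 and -0.13 with TP-0903. Within each of these comparisons, though not across all groups, the share of counts from mitochondrially encoded genes moved the other way from the sums. It was 6.79% and 7.79% in AXL shRNA cells, against 3.94% and 5.17% in control shRNA cells. With TP-0903 it was 5.16% and 5.82%, against 3.68% and 3.58% in control cells. The part of that share in the sums was not tested. These are bulk samples, in which fewer cells of a kind and less RNA per cell cannot be told apart.

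**Figure D1:**
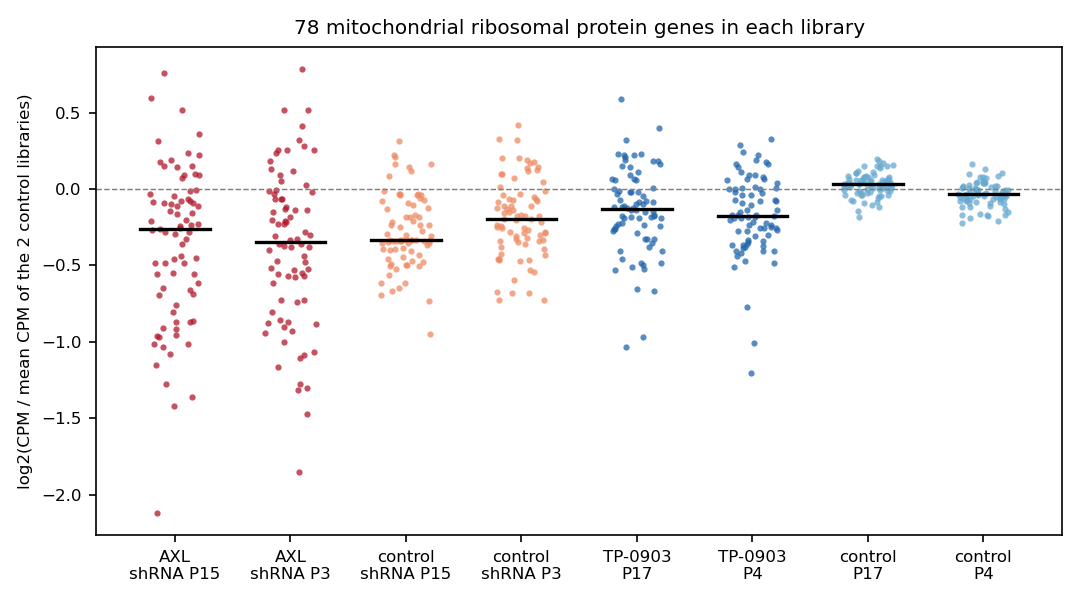
Each point is 1 of the 78 genes in 1 library, as log2 of its CPM over the mean CPM of the 2 control libraries, and the black bars are medians. The medians of the 6 other libraries lie below those of the control libraries, and the points spread most widely in the AXL shRNA libraries.

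The promoters of the family were read first for what the members share beyond their names. RefSeq promoters (GRCh38.p14, from 250 bases before to 50 bases after the start) were matched for 69 of the 78 genes, and letters were searched on both strands. Of the 17676 tested genes, promoters were found for 11566, called tested promoters here. The ETS motif CCGGAAG, the kind bound by GABP, stood in 29 of the 69 (42.0%), against 17.7% of tested promoters and 10.7% of all 27305 promoters. The YY1 motif AAGATGGC stood in 20 (29%), against 5.0% of tested and 3.0% of all promoters. The NRF1 core GCGCATGC stood in 6 (8.7%), against 5.2% of tested and 3.3% of all promoters. In all, 42 of 69 promoters (60.9%) held at least 1 of the 3 motifs. The share of tested promoters with at least 1 of them was not counted, so the 60.9% has no background beside it. The ETS and YY1 letters can share their AAG, which happened in 0 members. The CCAAT box (29%, against 36.1% of tested promoters), the GC box GGGCGG (60.9%, against 68.0%) and the E-box CACGTG (8.7%, against 9.8%) stood in smaller shares of member promoters than of tested promoters. A match describes letters and does not show that a factor bound there.

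The promoters of 4 members that carry matches are shown, each on the strand of its gene, with ETS, YY1 and NRF1 matches on either strand in capitals. Those of MRPL11, MRPL24, MRPL14 and MRPL1, which also changed in the comparisons below, held none of these motifs. MRPL20 (chr1:1407244-1407543, minus strand) and MRPL48 (chr11:73787624-73787923, plus strand) carried ETS matches, and MRPL20 also a YY1 match beside its start. MRPL32 (chr7:42932126-42932425, plus strand) and MRPS18B (chr6:30617590-30617889, plus strand) each carried an NRF1 core and a YY1 match. 
MRPL20: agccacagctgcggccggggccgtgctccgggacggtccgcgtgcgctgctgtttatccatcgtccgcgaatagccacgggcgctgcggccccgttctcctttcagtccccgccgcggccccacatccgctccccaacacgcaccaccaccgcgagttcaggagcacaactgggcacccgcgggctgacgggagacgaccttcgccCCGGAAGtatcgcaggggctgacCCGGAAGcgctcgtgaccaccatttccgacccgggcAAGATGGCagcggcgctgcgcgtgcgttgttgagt
MRPL48: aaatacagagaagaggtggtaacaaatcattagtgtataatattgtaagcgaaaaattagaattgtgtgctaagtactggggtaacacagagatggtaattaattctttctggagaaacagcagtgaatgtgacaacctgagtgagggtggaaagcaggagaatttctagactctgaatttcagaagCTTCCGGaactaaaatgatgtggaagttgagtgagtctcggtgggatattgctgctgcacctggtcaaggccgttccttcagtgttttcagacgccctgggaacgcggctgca
MRPL32: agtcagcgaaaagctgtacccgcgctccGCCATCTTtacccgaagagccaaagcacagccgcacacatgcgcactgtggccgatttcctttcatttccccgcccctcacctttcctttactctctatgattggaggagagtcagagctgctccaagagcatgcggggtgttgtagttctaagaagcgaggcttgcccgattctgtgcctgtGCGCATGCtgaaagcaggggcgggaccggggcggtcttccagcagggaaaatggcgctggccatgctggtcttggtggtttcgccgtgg
MRPS18B: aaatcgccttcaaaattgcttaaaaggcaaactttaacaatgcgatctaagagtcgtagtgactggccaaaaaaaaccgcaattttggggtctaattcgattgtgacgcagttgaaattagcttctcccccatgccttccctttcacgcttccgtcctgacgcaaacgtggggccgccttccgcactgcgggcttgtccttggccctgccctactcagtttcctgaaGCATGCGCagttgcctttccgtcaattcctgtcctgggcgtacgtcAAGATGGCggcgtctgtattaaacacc

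Against control shRNA, the family moved in both directions with AXL shRNA. With AXL shRNA, 26 of the 78 genes were lower and 12 higher than with control shRNA at an edgeR adjusted p at or under 0.05. Over all 17676 tested genes, 19.0% were lower and 18.5% higher, against 33.3% and 15.4% of the members. Without AXL shRNA P3 or control shRNA P15 the higher genes numbered 6 and 7, and without control shRNA P3 the lower genes numbered 17. The member median was a log2 fold change of -0.16, against -0.01 for all genes, and was -0.08 without control shRNA P3. Of the members called, 8 fell by more than 2-fold while 2 rose by more than 2-fold. The share of all genes past 2-fold was not counted. The SD of the log2 fold changes was 0.57 over the members, against 1.16 over all tested genes. The split was not the same in each scaling: limma on log2(TPM + 1) called 41 members lower and 5 higher, on a scale where the median of all genes itself was -0.15. Against the control cells in place of control shRNA, AXL shRNA had 37 members lower (47.4%, against 19.5% of all tested genes) and 3 higher (3.85%, against 17.3%), namely MRPL32, MRPL50 and MRPS6, with a median of -0.29. Of these calls, 22 of 37 lower and 1 of 3 higher, MRPL32, held whichever library was left out. That comparison shares the AXL shRNA libraries with the one above, and its groups share no P number, so that the hairpin and whatever the number marks cannot be told apart.

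Over all tested genes, 19.0% were lower and 18.5% higher with AXL shRNA. The large subunit held 19 of the lower (37.3%) and 6 of the higher genes (11.8%) among its 51, with a median of -0.21. The small subunit held 7 lower (26.9%) and 6 higher (23.1%) among its 26, with a median of -0.01. Of 46 members with a bacterial counterpart, 14 were lower (30.4%) and 8 higher (17.4%), with a median of -0.13. Of 31 found in mitochondria only, 12 were lower (38.7%) and 4 higher (12.9%), with a median of -0.16. Whether these subgroups differ was not tested.

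Among the members that fell, MRPL11 had the largest change. MRPL11 is the protein at the base of the stalk, where translation factors act, and its gene lies at chr11:66435075-66466738. It stood at 10.4 and 12.6 CPM in AXL shRNA cells, against 28.5 and 31.4 CPM in control shRNA cells (log2 fold change -1.38 ± 0.18, SE, edgeR adjusted p = 0.00151). Both AXL shRNA values lay far below both control values.

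MRPS33, a small-subunit protein without a bacterial counterpart (chr7:141002610-141015228), had 21.8 and 22.3 CPM in AXL shRNA cells, against 49.0 and 56.9 CPM in control shRNA cells (-1.26 ± 0.11, edgeR adjusted p = 0.00055). MRPL24 had 34.2 and 33.9 CPM, against 65.5 and 83.6 CPM in control shRNA cells (-1.13 ± 0.14, edgeR adjusted p = 0.00125). MRPL20 had 18.9 CPM in both AXL shRNA libraries, against 38.8 and 42.3 CPM in control shRNA cells (-1.10 ± 0.11, edgeR adjusted p = 0.000799). In each of these 3 genes the AXL shRNA values were close together and far below the controls.

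MRPS16, a small-subunit protein needed for that subunit to assemble, had 70.5 and 65.8 CPM in AXL shRNA cells, against 136 and 155 CPM in control shRNA cells (-1.10 ± 0.11, edgeR adjusted p = 0.000648). MRPL33 had 28.9 and 31.1 CPM, against 61.4 and 65.5 CPM in control shRNA cells (-1.08 ± 0.10, edgeR adjusted p = 0.000607). MRPL40, a large-subunit protein found in mitochondria only, had 13.9 and 14.5 CPM, against 30.1 and 29.7 CPM in control shRNA cells (-1.07 ± 0.12, edgeR adjusted p = 0.000981). MRPL15 had 27.2 and 28.3 CPM, against 55.4 and 58.7 CPM in control shRNA cells (-1.04 ± 0.10, edgeR adjusted p = 0.00056). All 8 of these calls held with any library left out.

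The largest rise was that of MRPL32, a large-subunit protein that is cut by a mitochondrial protease before it joins the ribosome (chr7:42932200-42948958). It had 77.0 and 78.4 CPM in AXL shRNA cells, against 37.0 and 36.3 CPM in control shRNA cells (1.08 ± 0.09, edgeR adjusted p = 0.000486). MRPL14, which lies where the subunits meet (chr6:44113454-44127457), had 31.1 and 32.0 CPM, against 14.2 and 17.1 CPM in control shRNA cells (1.02 ± 0.14, edgeR adjusted p = 0.00215). MRPS6 had 38.2 and 36.3 CPM, against 19.8 and 18.5 CPM in control shRNA cells (0.96 ± 0.14, edgeR adjusted p = 0.00256). In each of these genes both AXL shRNA values lay above both control shRNA values.

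MRPL39 (0.91 ± 0.16, edgeR adjusted p = 0.00537), MRPS25 (0.72 ± 0.14, edgeR adjusted p = 0.008), MRPL28 (0.52 ± 0.10, edgeR adjusted p = 0.00625), MRPS35 (0.52 ± 0.11, edgeR adjusted p = 0.0116) and MRPL37 (0.44 ± 0.10, edgeR adjusted p = 0.0104) rose as well. The remaining 4 higher genes were MRPL30, MRPS9, MRPS7 and MRPS2. The last 6 named, MRPS35 and MRPL37 included, each lost the call without at least 1 library; without AXL shRNA P3 the edgeR adjusted p was 0.0643 for MRPS35 and 0.0619 for MRPL37. Of all member calls, 14 of 26 lower and 6 of 12 higher held whichever library was left out. The 40 members that did not pass the test had log2 fold changes between -0.36 and 0.42.

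**Figure D2:**
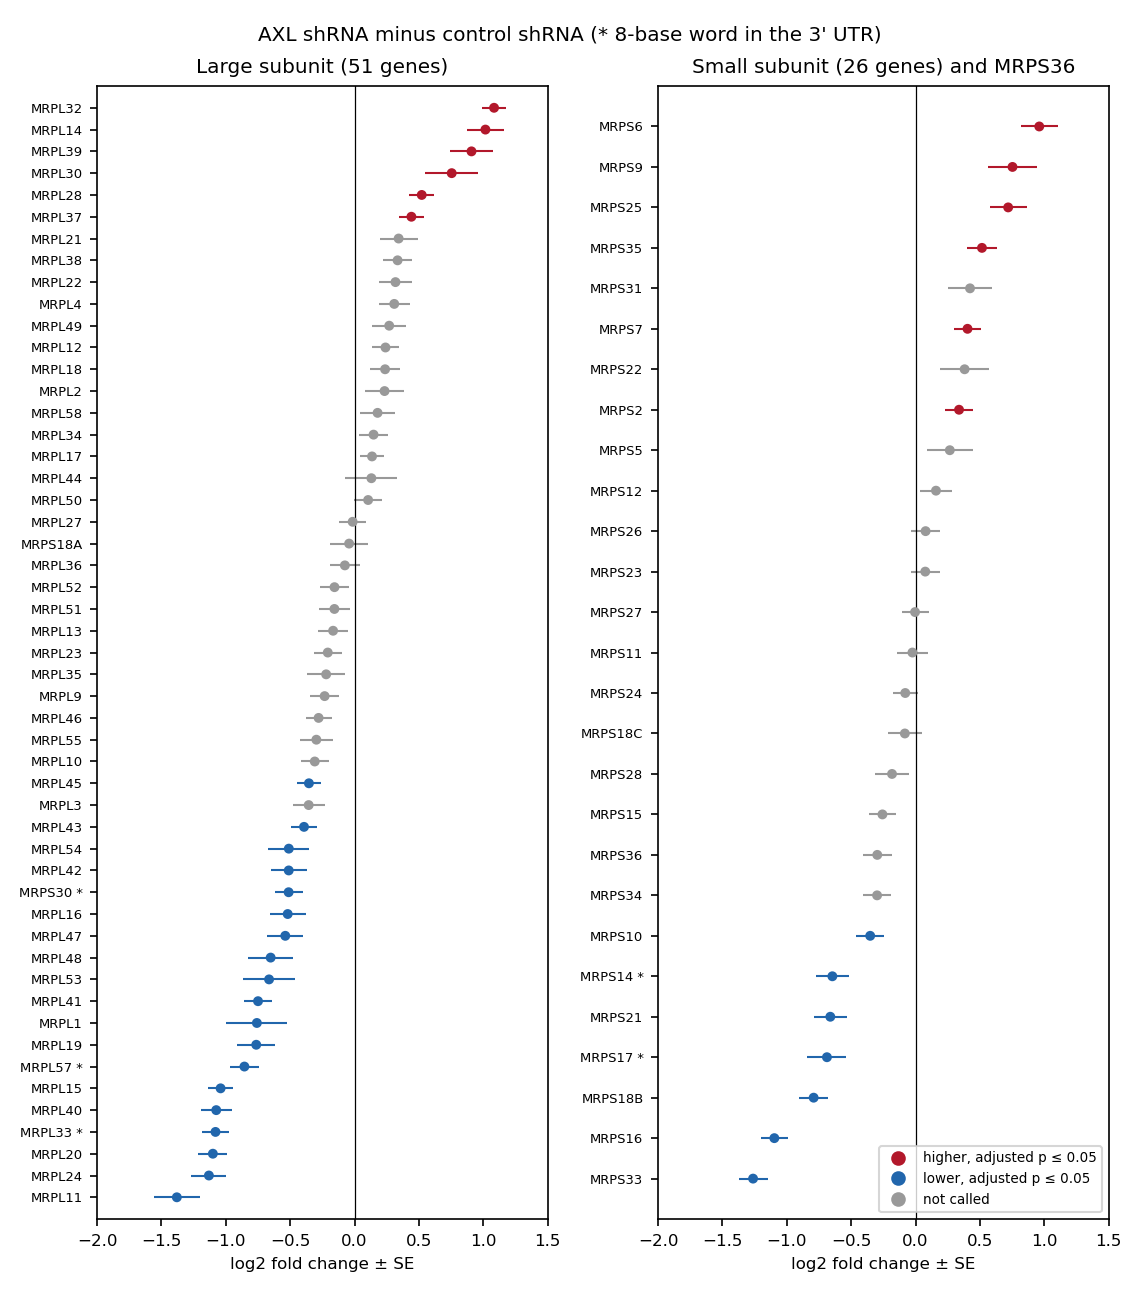
Log2 fold changes of AXL shRNA minus control shRNA (points) with their SE (lines) for the large-subunit genes on the left and the small-subunit genes with MRPS36 on the right, coloured by the edgeR call. The values run from -1.38 for MRPL11 to 1.08 for MRPL32, and all 5 genes marked with an asterisk are among those called lower.

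The paralogues MRPS18A, MRPS18B and MRPS18C share a bacterial relative but take different places in the ribosome, and MRPS18B alone of the 3 passed the test with AXL shRNA. MRPS18B had 31.5 and 27.0 CPM in AXL shRNA cells, against 48.6 and 52.5 CPM in control shRNA cells, and fell (-0.79 ± 0.12, edgeR adjusted p = 0.00243). MRPS18A had 20.9 and 18.4 CPM, against 21.0 and 19.5 CPM in control shRNA cells (-0.04 ± 0.15, edgeR adjusted p = 0.841). MRPS18C had 16.5 and 16.3 CPM, against 17.2 and 17.6 CPM in control shRNA cells (-0.08 ± 0.13, edgeR adjusted p = 0.65). The differences between the paralogues were not tested. Exons of MRPS18A and MRPS18C overlap genes on the opposite strand (RSPH9 and ABRAXAS1) over 47.0% and 40.2% of their bases, and no strand is stated for the libraries, so their counts are uncertain.

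An overlap with another gene covered more than 20% of the exon bases in 14 members, among them MRPL12 (68.2%), MRPS28 (35.8%), MRPS17 (27.0%), MRPS25 (22.2%) and MRPL33 (21.1%). MRPL12 had 131 and 121 CPM in AXL shRNA cells, against 102 and 112 CPM in control shRNA cells, a difference that did not pass (0.24 ± 0.11, edgeR adjusted p = 0.114) and was -0.01 on the log2 TPM scale. MRPS12 had 117 and 118 CPM, against 94.2 and 117 CPM in control shRNA cells (0.16 ± 0.12, edgeR adjusted p = 0.35), and was -0.04 with library totals only. MRPS36 had 26.9 and 24.9 CPM, against 30.6 and 33.2 CPM in control shRNA cells (-0.30 ± 0.11, edgeR adjusted p = 0.0755).

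The 3′ untranslated regions (UTRs) were searched for the 8-base word TGAAGGAA, which an earlier search of these same data had tied to lower expression with AXL shRNA, so that its count here is no independent evidence. Of 74 members with a 3′ UTR of at least 50 bases, 5 held it, and their sites are shown with the word in capitals. The sequences are 30 bases from GENCODE 29 transcripts, read 5′ to 3′ on the gene's strand, and the site begins at UTR base 137 in MRPL33, 253 in MRPL57, 935 in MRPS17, 970 in MRPS14 and 45 in MRPS30. 
MRPL33: gaaggccattgTGAAGGAAaacaatgcagt
MRPL57: agatgatatttTGAAGGAAagctgcaataa
MRPS17: aacctttatttTGAAGGAAgaaagtctttt
MRPS14: cacaaatcatgTGAAGGAAttaagactgac
MRPS30: ttaaattttacTGAAGGAAcaataatgatg

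All 5 of these genes fell with AXL shRNA, with a median log2 fold change of -0.69. MRPL57 had 16.8 and 17.4 CPM in AXL shRNA cells, against 30.8 and 31.0 CPM in control shRNA cells (-0.86 ± 0.11, edgeR adjusted p = 0.00156). MRPS17 had 14.2 and 17.3 CPM, against 24.3 and 26.5 CPM in control shRNA cells (-0.69 ± 0.15, edgeR adjusted p = 0.0114). MRPS14 had 12.5 and 12.2 CPM, against 19.4 and 19.3 CPM in control shRNA cells (-0.65 ± 0.13, edgeR adjusted p = 0.00783). These 3 encode a large-subunit protein and a pair of small-subunit proteins with bacterial counterparts.

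MRPS30, a large-subunit protein despite its symbol, had 25.5 and 25.7 CPM, against 34 and 39.1 CPM in control shRNA cells (-0.51 ± 0.11, edgeR adjusted p = 0.01). Without control shRNA P3 the edgeR adjusted p was 0.0528 for MRPS30 and 0.0541 for MRPS17. With TP-0903 the 5 genes had a median of 0.12. Over all tested protein-coding genes with such a UTR, 860 of 13561 (6.3%) held the word, with a median of -0.35, 323 lower and 90 higher. Counting genes with the word or a 7-base part of it raised the members to 13, of which 7 were lower and 2, MRPS6 and MRPS25, higher, with a median of -0.35; over all these protein-coding genes it took in 3353, of which 966 were lower and 522 higher, with a median of -0.18. The 61 members with neither had a median of -0.16, with 18 lower and 10 higher, against 1812 lower and 2334 higher among the 10208 protein-coding genes with neither, whose median was 0.06. The genes with the word had longer UTRs (a median of 1323 bases in members, against 286 bases in members with neither), and the labels do not give the hairpin's own sequence.

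The control hairpin cells themselves stood below the control cells for most of the family. In 57 of 78 genes (73.1%) both control shRNA libraries lay below both control libraries, against 28.4% of all tested genes. The median log2 fold change was -0.28, against 0.02 for all genes, and 65 of 78 values were negative. By edgeR, 6 members passed as lower (7.69%, against 6.09% of all genes) and 0 as higher (against 3.06% of all genes). At an unadjusted edgeR p under 0.05, 36 of the 78 members were lower, against 14.4% of all tested genes, and 3 of the 78 were higher, against 13.1%. DESeq2 and limma-voom also called 0 members higher. The groups carry different P numbers, so the hairpin and whatever the number marks cannot be told apart.

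The 6 lower genes were MRPL23, a protein at the exit of the tunnel (24.6 and 24.1 CPM in control shRNA cells, against 38.4 and 38.7 CPM in control cells; -0.66 ± 0.11, edgeR adjusted p = 0.0135), MRPL14, MRPL37, MRPS25, MRPL39 and MRPL22. MRPL14 had 14.2 and 17.1 CPM in control shRNA cells, against 28.2 and 26.4 CPM in control cells (-0.81 ± 0.14, edgeR adjusted p = 0.0182). MRPL39 had 14 and 14.1 CPM, against 25.2 and 20.1 CPM in control cells (-0.69 ± 0.16, edgeR adjusted p = 0.0443). Each of these 6 calls was lost without at least 1 of the libraries compared, with 0 to 3 members called across the fits that left a library out. Of these 6, MRPL14, MRPL37, MRPS25 and MRPL39 are also among the 12 that were higher with AXL shRNA than with control shRNA, a comparison that shares the control shRNA libraries. Their AXL shRNA values came near the control cells: MRPL14 had 31.1 and 32.0 CPM in AXL shRNA cells, against 28.2 and 26.4 CPM in control cells, and MRPL37 had 61.2 and 67.1 CPM, against 66.3 and 65.5 CPM in control cells. MRPL32 differed in this, with 77.0 and 78.4 CPM in AXL shRNA cells, against 46.3 and 44.7 CPM in control cells.

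With TP-0903 a few members were lower, and most of the family lay slightly below its control. Of the 78 genes, 6 were lower (7.69%, against 6.35% of all tested genes) and 0 higher (against 4.9% of all tested genes) at an edgeR adjusted p at or under 0.05. The count of lower members was 0 without TP-0903 P17, control P17 or TP-0903 P4, and 1 without control P4. At an unadjusted edgeR p under 0.05, 22 of the 78 members were lower, against 14.9% of all tested genes, and 2 of the 78 were higher, against 13.6%. DESeq2 and limma-voom also called 0 members higher. In 45 of 78 genes (57.7%) both TP-0903 libraries lay below both control libraries, against 30.9% of all tested genes. The median was -0.14, against -0.02 for all genes, and 55 of 78 values were negative. The large and small subunits had medians of -0.14 and -0.15. The share called is thus near the background, while the share below both controls is above it.

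MRPL1 and MRPL48 had the largest changes. MRPL1 (chr4:77862520-77952790) had 11.1 and 9.43 CPM with TP-0903, against 24.7 and 18.8 CPM in control cells (-1.08 ± 0.24, edgeR adjusted p = 0.0293). MRPL48, a large-subunit protein found in mitochondria only (chr11:73787316-73865133), had 11.9 and 12.1 CPM, against 26.1 and 22.5 CPM in control cells (-1.02 ± 0.18, edgeR adjusted p = 0.013). In both genes the TP-0903 values lay below both control values.

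MRPS18B (chr6:30617709-30626395) had 39.7 and 40.9 CPM with TP-0903, against 58.9 and 55.5 CPM in control cells (-0.50 ± 0.11, edgeR adjusted p = 0.033). MRPS28 had 22.5 and 26.9 CPM, against 35.9 and 35.5 CPM in control cells (-0.53 ± 0.13, edgeR adjusted p = 0.0412). MRPS26 had 50.2 and 50.7 CPM, against 72.1 and 68.4 CPM in control cells (-0.48 ± 0.11, edgeR adjusted p = 0.0394). MRPL17, whose bacterial counterpart lies near the tunnel exit, had 47.3 and 48.7 CPM, against 67.2 and 62.9 CPM in control cells (-0.44 ± 0.10, edgeR adjusted p = 0.029). None of the 6 calls held in every fit that left out 1 library: MRPL48, the firmest, had an edgeR adjusted p of 0.102 without TP-0903 P17, 0.0845 without control P17 and 0.0648 without TP-0903 P4. For all 6 the log2 fold change stayed negative in those fits.

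**Figure D3:**
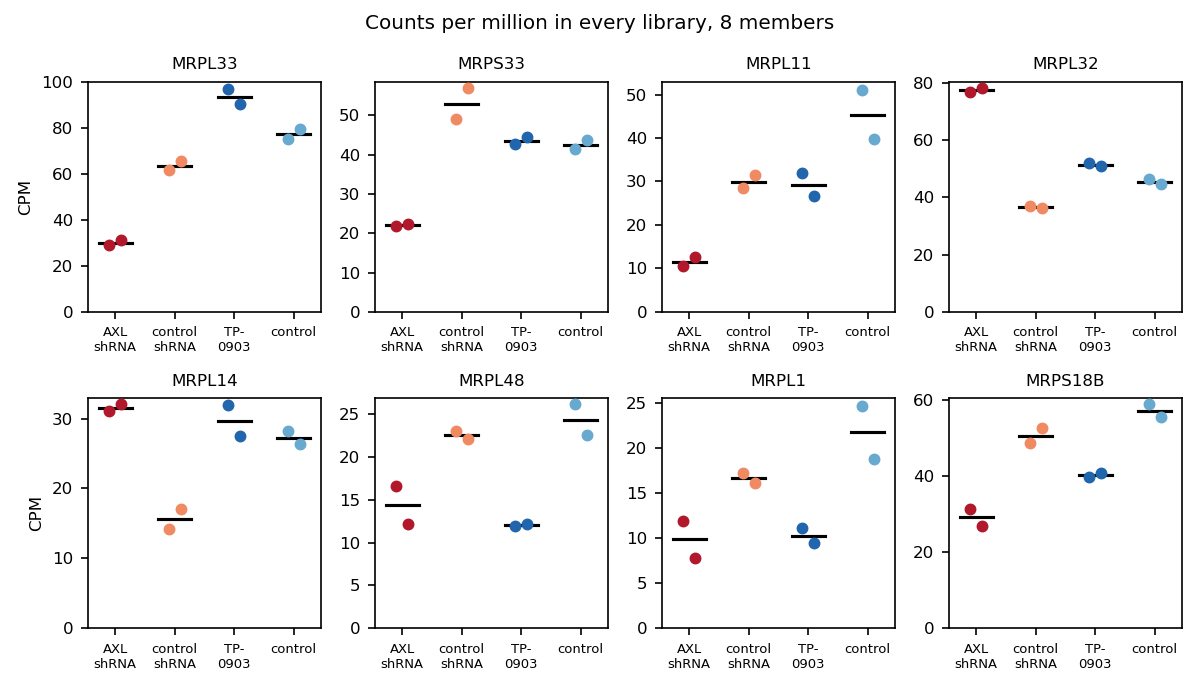
CPM in every library (points, P numbers in the order 15 and 3 or 17 and 4) and group means (bars) for 8 members, with each vertical axis starting at 0. MRPL33, MRPS33 and MRPL11 are lowest in AXL shRNA cells, MRPL32 is highest there, MRPL14 is low in control shRNA cells alone, and MRPL48, MRPL1 and MRPS18B are below their controls in both AXL shRNA and TP-0903 cells.

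MRPL1, MRPL48 and MRPS18B were lower both with AXL shRNA and with TP-0903. Of all tested genes, 19.0% were lower with AXL shRNA and 6.35% with TP-0903. The share of all genes lower in both was not counted, so the 3 members have no background beside them. With AXL shRNA, MRPL48 had 16.6 and 12.1 CPM, against 23.0 and 22.1 CPM in control shRNA cells (-0.65 ± 0.18, edgeR adjusted p = 0.0246), and MRPL1 had 11.9 and 7.83 CPM, against 17.2 and 16.1 CPM in control shRNA cells (-0.76 ± 0.24, edgeR adjusted p = 0.0402). Without AXL shRNA P3 these became 0.105 for MRPL48 and 0.168 for MRPL1, whereas the knockdown call of MRPS18B held with any library left out. Over the 78 genes the effects correlated at a Pearson r of 0.247, against 0.202 over all tested genes, and 46 of 78 had the same sign. The comparisons share no library, and genes are not independent replicates, so r is a description.

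A test of the difference, the drug effect minus the knockdown effect, passed for 20 members, 12 higher (15.4%, against 9.82% of all tested genes) and 8 lower (10.3%, against 10.8%). Of these calls, 6 of the 12 higher and 2 of the 8 lower held whichever library was left out, and those fits called 6 to 10 members higher and 2 to 8 lower. A positive value means that the drug effect lay above the knockdown effect. MRPL33 had the largest positive one, 1.36 ± 0.14 (edgeR adjusted p = 0.00178). It had 96.7 and 90.2 CPM with TP-0903, against 75.1 and 79.4 CPM in control cells, where the log2 fold change of 0.27 did not pass. MRPS33 followed at 1.30 ± 0.16 (edgeR adjusted p = 0.00267), MRPL20 at 1.17 ± 0.16 (edgeR adjusted p = 0.00382), MRPL40 at 1.14 ± 0.17 (edgeR adjusted p = 0.0049) and MRPL41 at 0.91 ± 0.16 (edgeR adjusted p = 0.0086). With TP-0903 these 4 genes had log2 fold changes of 0.04 to 0.16, none past the test. The differences of these 5 members held with any library left out.

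On the other side, MRPS6 had a difference of -1.41 ± 0.20 (edgeR adjusted p = 0.00444). It had 18 and 19.2 CPM with TP-0903, against 28.1 and 22.6 CPM in control cells, which did not pass (-0.45 ± 0.14, edgeR adjusted p = 0.0856). MRPS25 differed by -1.02 ± 0.20 (edgeR adjusted p = 0.0138), MRPL32 by -0.91 ± 0.13 (edgeR adjusted p = 0.00441), MRPL14 by -0.89 ± 0.20 (edgeR adjusted p = 0.0211) and MRPL37 by -0.58 ± 0.13 (edgeR adjusted p = 0.0228). The calls of MRPS6 and MRPL32 held with any library left out. MRPL37 lost its call in 7 of the 8 fits that left out 1 library (edgeR adjusted p 0.056 to 0.0775) and MRPL14 in 5 of them (0.0501 to 0.0789), and MRPS25 lost it without TP-0903 P4 (0.0543). For MRPL11 (0.75 ± 0.25, edgeR adjusted p = 0.0705), MRPL1 (-0.32 ± 0.33, edgeR adjusted p = 0.529) and MRPS18B (0.29 ± 0.16, edgeR adjusted p = 0.25) no difference passed the test.

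**Figure D4:**
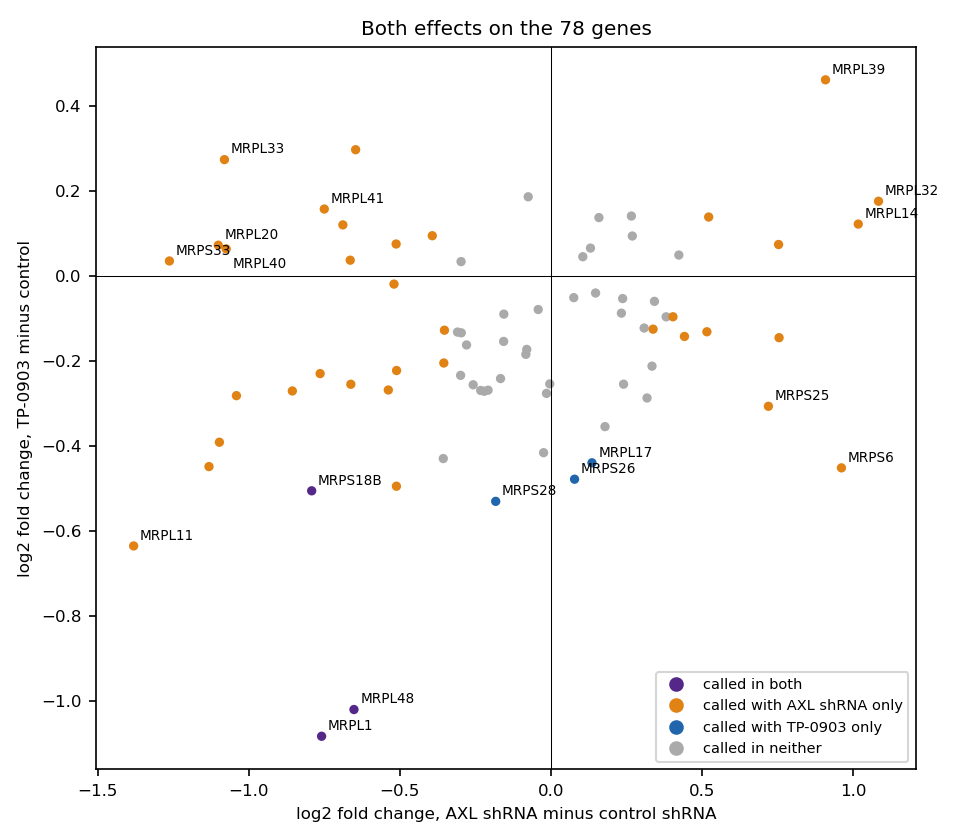
Log2 fold change of TP-0903 minus control (vertical) against that of AXL shRNA minus control shRNA (horizontal) for the 78 genes, coloured by which edgeR call passed. The horizontal spread is wider (-1.38 to 1.08) than the vertical one (-1.08 to 0.46), and only MRPL1, MRPL48 and MRPS18B were called in both.

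Other parts of mitochondrial translation were read beside the family. With AXL shRNA, 8 of 26 ribosome assembly factors were lower (30.8%, against 19.0% of all tested genes) and 4 higher (15.4%, against 18.5%). TRUB2, a pseudouridine synthase of mitochondrial RNA, had 32.5 and 29.2 CPM in AXL shRNA cells, against 63.7 and 71.4 CPM in control shRNA cells (-1.13 ± 0.11, edgeR adjusted p = 0.000635). MRM2, a methyltransferase of the large ribosomal RNA, was lower with AXL shRNA (-0.91 ± 0.11, edgeR adjusted p = 0.00124) and the only assembly factor called with TP-0903 (-0.49 ± 0.11, edgeR adjusted p = 0.0308). MRM3, another methyltransferase of that RNA, rose with AXL shRNA (0.68 ± 0.12, edgeR adjusted p = 0.0049).

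Of 15 translation factors, 6 were lower (40.0%, against 19.0% of all tested genes) and 2 higher (13.3%, against 18.5%) with AXL shRNA. The initiation factor MTIF3 had 5.89 and 5.29 CPM in AXL shRNA cells, against 20.6 and 17.3 CPM in control shRNA cells (-1.76 ± 0.16, edgeR adjusted p = 0.000558). The recycling factor MRRF had 23.4 and 19.7 CPM, against 55.0 and 57.0 CPM in control shRNA cells (-1.38 ± 0.12, edgeR adjusted p = 0.000506). The elongation factor TUFM rose (0.44 ± 0.12, edgeR adjusted p = 0.0263). With TP-0903 only GFM2, which acts with MRRF in recycling, was called, at 97.4 and 87.1 CPM, against 58.2 and 61.5 CPM in control cells (0.62 ± 0.10, edgeR adjusted p = 0.0105).

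Of the ribosomal proteins with other symbols, 1 of 5, DAP3, was higher with AXL shRNA (0.34 ± 0.10, edgeR adjusted p = 0.0344), against 18.5% of all tested genes. The RNA parts of the ribosome were both higher: MT-RNR1, the small-subunit RNA, had 2060 and 1940 CPM in AXL shRNA cells, against 514 and 561 CPM in control shRNA cells (1.90 ± 0.19, edgeR adjusted p = 0.000724), and MT-RNR2, the large-subunit RNA, changed by 1.68 ± 0.18 (edgeR adjusted p = 0.000922). With TP-0903 their values of 0.53 and 0.66 did not pass. Of the 13 mitochondrially encoded mRNAs, 7 were called with AXL shRNA, each of them higher (54%, against 18.5% of all tested genes). With TP-0903 2 of them, MT-CO2 and MT-CYB, were higher (15.4%, against 4.9% of all tested genes). The medians of the 13 mRNAs were 0.75 with AXL shRNA and 0.67 with TP-0903. The labels name total RNA and no selection step, which bears on the levels of mitochondrial ribosomal RNA.

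Of 10 regulators of mitochondrial biogenesis, 5 were higher (against 18.5% of all tested genes) and 1 lower (against 19.0%) with AXL shRNA. MYC had 288 and 287 CPM in AXL shRNA cells, against 97.2 and 148 CPM in control shRNA cells (1.23 ± 0.20, edgeR adjusted p = 0.00352), and PPRC1, a coactivator of the PGC family, rose by 0.83 ± 0.12 on the log2 scale (edgeR adjusted p = 0.00246). GABPA, the DNA-binding subunit of GABP, was the lower one, with 24.5 and 20.6 CPM in AXL shRNA cells, against 34.8 and 31.8 CPM in control shRNA cells (-0.56 ± 0.13, edgeR adjusted p = 0.0156). It was also lower with TP-0903, at 21.4 and 23.9 CPM, against 33.6 and 31.9 CPM in control cells (-0.53 ± 0.13, edgeR adjusted p = 0.0465). NRF1, a transcription factor of nuclear genes for mitochondria, had 7.65 and 7.56 CPM with TP-0903, against 17.6 and 15 CPM in control cells (-1.10 ± 0.15, edgeR adjusted p = 0.00589). With AXL shRNA its value was -0.24 ± 0.15 (edgeR adjusted p = 0.252).

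The 29 members with the ETS motif had a median log2 fold change of -0.30 with AXL shRNA, against 0.05 for the 40 without it. With TP-0903 the medians were -0.13 with the motif and -0.14 without it. The 42 members with the GC box had medians of 0.09 with AXL shRNA and -0.07 with TP-0903, against -0.28 and -0.25 for the 27 without it. With AXL shRNA the medians with and without the YY1 motif were -0.118 and -0.024, and for the NRF1 core 0.026 and -0.08. For the CCAAT box they were -0.029 and -0.156, and for the E-box 0.097 and -0.156. With TP-0903 they were, in the same order, -0.14 and -0.133, -0.235 and -0.13, -0.035 and -0.161, and -0.162 and -0.13. The NRF1 core and the E-box stood in 6 members each. Such medians were not taken over all tested promoters. Differences between members with and without a motif were not tested. Whether the level of GABPA bears on this was not tested. TFAM, which packages and transcribes mitochondrial DNA, did not pass with AXL shRNA (0.28 ± 0.12, edgeR adjusted p = 0.102) or TP-0903 (-0.44 ± 0.12, edgeR adjusted p = 0.0539). The mitochondrial RNA polymerase POLRMT also did not pass in either comparison. Of 17 genes of mitochondrial DNA expression 2 were lower (11.8%, against 19.0% of all tested genes) and 2 higher (11.8%, against 18.5%) with AXL shRNA.

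Of 17 mitochondrial tRNA synthetases, 4 were lower (23.5%, against 19.0% of all tested genes) and 2 higher (11.8%, against 18.5%) with AXL shRNA. CARS2, which charges the cysteine tRNA, had 14.7 and 14.5 CPM in AXL shRNA cells, against 32.8 and 30.2 CPM in control shRNA cells (-1.11 ± 0.12, edgeR adjusted p = 0.000809). HARS2, which charges the histidine tRNA, had 74.6 and 60.8 CPM, against 40 and 35.6 CPM in control shRNA cells (0.84 ± 0.15, edgeR adjusted p = 0.00542).

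The cytosolic ribosome and the respiratory complexes were read beside the family. Both lists were taken by symbol. The rule for the respiratory complexes found 137 genes in the files, and it can take in pseudogenes and miss some subunit genes. Of 78 mitochondrial ribosomal protein genes 6 were lower with TP-0903 (7.69%, against 6.35% of all tested genes), with a median of -0.14. Of 83 tested cytosolic ones 22 were lower (26.5%) and 1 higher (1.2%, against 4.9% of all tested genes), with a median of -0.44. With AXL shRNA the medians were -0.16 for the mitochondrial and -0.05 for the cytosolic genes. Of the cytosolic genes 19 were lower (22.9%, against 19.0% of all tested genes) and 6 higher (7.23%, against 18.5%). In control shRNA cells against control cells the medians were -0.28 for the mitochondrial and 0.15 for the cytosolic genes. Of the nuclear genes of the respiratory complexes 78 were tested. With AXL shRNA 11 were lower (14.1%, against 19.0% of all tested genes) and 20 higher (25.6%, against 18.5%), with a median of 0.10. With TP-0903 2 were called, both lower (2.56%, against 6.35% of all tested genes), with a median of 0.00. In control shRNA cells 10 were lower (12.8%, against 6.09%) and 1 higher (1.28%, against 3.06%), with a median of -0.17. The differences between the lists were not tested.

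**Figure D5:**
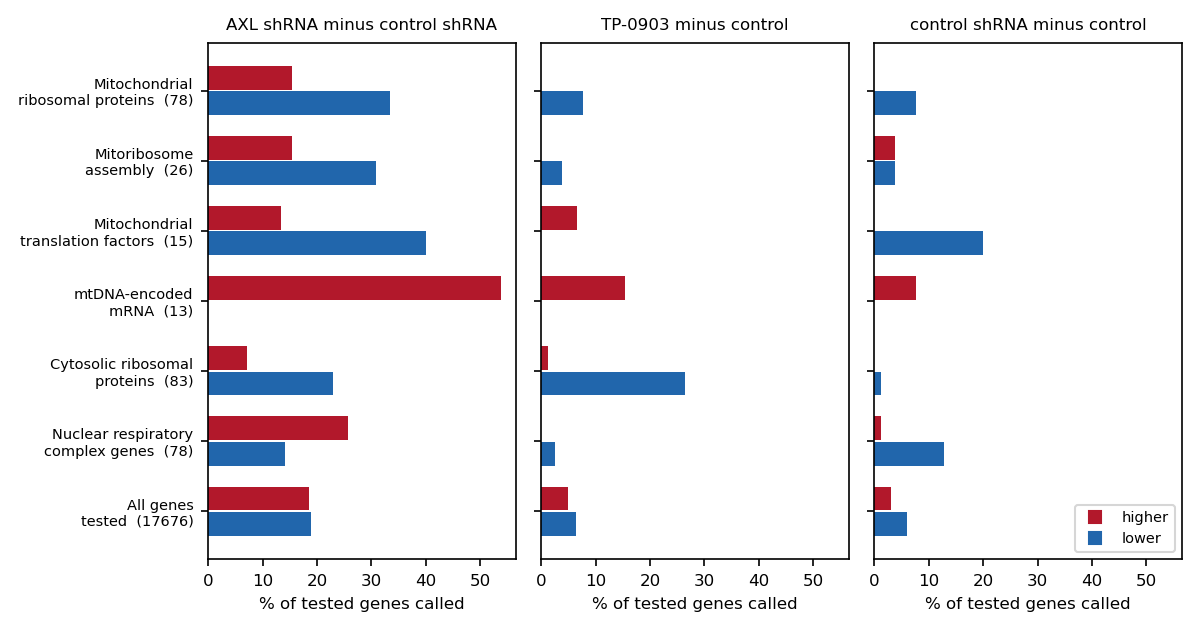
Bars give the percentage of the tested genes of each list that edgeR called higher (upper bar, red) or lower (lower bar, blue), for 3 comparisons. Members were called lower in 33.3% and higher in 15.4% with AXL shRNA, and cytosolic ribosomal protein genes were called lower in 26.5% with TP-0903.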

How the data were processed

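Per the submitters' processing notes the authors used STAR 2.5.3a, RSEM and GRCh38. The authors deposited RSEM expected counts, estimates that need not be whole and carry no normalization. Beside them stand TPM, in which the authors' RSEM run had allowed for length and depth. Per the file headers FPKM come from that run too; they were not used. The deposited effective lengths, another value per the file headers, served as offsets in 1 alternative. The members and lists were chosen with earlier results of these data known.

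Expected counts were rounded, filtered by filterByExpr, scaled by TMM and fitted with edgeR 4.0.16 (R 4.3.3; quasi-likelihood, all 8 libraries, 1 term per group, two-sided, Benjamini-Hochberg over 17676 genes, threshold 0.05). The fit pools the spread over groups (prior degrees of freedom 3.33, residual 4) and was tested on simulated data. Per the labels the libraries are biological replicates. Within groups 48.1% to 53.9% of genes differed beyond counting error. SE is the size of the log2 fold change over the square root of F. CPM use TMM-scaled totals.

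Members named were up to 8 per direction with the smallest p for AXL shRNA and for TP-0903, up to 5 for the difference of effects and for control shRNA minus control, the 3 highest and 3 lowest in TPM, and MRPS18A, MRPS18B, MRPS18C, MRPL12, MRPS30 and MRPS36. In other lists up to 2 per direction were taken, with MT-RNR1, MT-RNR2, MYC, NRF1, GABPA, TFAM, POLRMT, DAP3 and AXL always. An item chosen by the rule is not reported here. MRPL30, MRPS9, MRPS7, MRPS2, MRPL22, MRPL50, the 3′ UTR genes, the markers of cell types and the examples drawn from lists were added after their values were seen. Positions and 3′ UTRs are from GENCODE 29, in which 58039 of 58302 gene IDs were found. Alternatives covered scaling, the filter, DESeq2 1.42.0, limma 3.58.1 on voom and on log2 TPM with pseudocounts of 1 and 0.1, effective lengths, a replicate block, the 4 libraries of a comparison alone, and each library left out.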

Additional observations from a re-analysis of the deposited data

Results flagged for a closer look

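The difference of effects, drug effect minus knockdown effect on the log2 scale, passed its interaction test (edgeR quasi-likelihood) for each of these members. The drug effect lay above the knockdown effect by 1.36 in MRPL33, 1.30 in MRPS33, 1.17 in MRPL20, 1.14 in MRPL40 and 0.91 in MRPL41. It lay below it, with differences of -1.41 in MRPS6, -1.02 in MRPS25, -0.91 in MRPL32, -0.89 in MRPL14 and -0.58 in MRPL37. With 1 library left out, MRPL37 lost the call in 7 of 8 fits (edgeR adjusted p 0.056 to 0.0775), MRPL14 in 5 (0.0501 to 0.0789) and MRPS25 in 1, without TP-0903 P4 (0.0543), while the other 7 members held in all 8. MRPL14, MRPL37 and MRPS25 were also among the members lower in control shRNA cells than in control cells, with log2 fold changes of -0.81 in MRPL14, -0.48 in MRPL37 and -0.64 in MRPS25, and the part of that baseline in their differences was not tested.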

How the results depend on the processing

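Each group held 2 libraries and the biological coefficient of variation was 21.5%, so small changes of single members are at the limit of the test, and calls near the threshold move with the setting. Among named genes, 978 of 1095 values under other settings kept direction and call, 75 lost the call, 27 gained it and 15 changed sign; with a library left out these were 735, 144, 1 and 8 of 888. For AXL shRNA, members higher numbered 6 with library totals only, 5 with limma on either log2 TPM scale and 19 with the replicate block, against 12. Members lower numbered 41 on either TPM scale, against 26. Their median was -0.354 with library totals (all genes -0.214), -0.34 with a TPM pseudocount of 1 (all genes -0.148) and -0.343 with 0.1 (all genes -0.211), so that it lay below that of all genes in each. Of all genes called, 32.8%, 31.3% and 31.1% were higher in these fits, against 49.4%.

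For TP-0903, genes called numbered 3515 without a filter, 3002 with DESeq2 and 4647 with the replicate block, against 1989. Members lower numbered 12 with library totals, 10 with DESeq2 and on both TPM scales, 2 with effective lengths, 13 with the block and 3 with the 4 libraries alone, and 1 was higher with the block. The median was -0.116 with RLE size factors and DESeq2, -0.199 with library totals, -0.188 and -0.19 on the TPM scales and -0.117 with the 4 libraries. With library totals 33.3% of called genes were higher, against 43.5%. For the difference of effects, members lower numbered 5 with library totals, 13 with DESeq2, 4 on both TPM scales, 5 with effective lengths and 16 with the block, against 8, and 6530 genes were called with the block. Its median changed sign, to 0.075 with library totals (all genes 0.145), 0.135 (0.141) and 0.137 (0.196) on the TPM scales, and 61.0%, 63.5% and 64.2% of calls were higher there, against 47.6%. For control shRNA minus control, genes called numbered 3352 without a filter, 2758 with DESeq2 and 743 with the 4 libraries, against 1618. Members lower numbered 10, 11 and 1 in these, and 1 was higher on the TPM scale with a pseudocount of 1. DESeq2 gave 43.9% of calls as higher, no filter 50.2%, against 33.4%.

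For AXL shRNA minus control, whose counts under other settings were added after the data were seen, 1 member was higher with library totals and on both TPM scales, against 3. The median of -0.291 became -0.258 with RLE size factors, -0.259 with DESeq2, -0.311 without a filter, -0.33 with effective lengths, -0.264 with the 4 libraries, -0.443 with library totals (all genes -0.17), and -0.531 (-0.146) and -0.539 (-0.213) on the TPM scales, where 34.5%, 30.3% and 29.8% of calls were higher, against 47.1%.

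With 1 library left out, AXL shRNA gave 4489 to 6139 genes, 6 to 11 members higher, 17 to 24 lower and medians of -0.156 to -0.077. TP-0903 gave 487 to 1797 genes, 0 to 7 members lower and medians of -0.179 to -0.112. The difference gave 1896 to 2744 genes, 6 to 10 members higher, 2 to 8 lower and medians of -0.129 to -0.004. Control shRNA minus control gave 348 to 1301 genes, 0 to 3 members lower and medians of -0.331 to -0.197. AXL shRNA minus control gave 3918 to 6400 genes, 1 to 3 members higher, 25 to 34 lower and medians of -0.344 to -0.265. In these fits a lone library is assumed to vary like the other groups.

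Signs that changed belonged to genes that did not pass the test. With AXL shRNA, MRPS12 was -0.039 with library totals and -0.049 on both TPM scales, MRPL12 was -0.012 on both TPM scales, NRF1 was 0.072 with effective lengths, and MRPS18A was 0.013 without control shRNA P15 and 0.047 without AXL shRNA P3 (from -0.137 to 0.047 over all such fits). With TP-0903, MRPS31 was -0.011 with library totals, -0.07 without TP-0903 P17 and -0.106 without control P4 (highest 0.224), and MRPS18A was 0.085 without TP-0903 P4 (lowest -0.239). MRPS36 was -0.027 with library totals, -0.156 and -0.16 on the TPM scales, -0.123 with effective lengths and -0.003 without control P17 (highest 0.08). POLRMT was -0.024, -0.143, -0.146 and -0.109 in the same 4 settings and -0.008 without TP-0903 P17 (highest 0.102), and AXL was -0.064 without TP-0903 P17 (highest 1.049). The causes of these changes were not tested.

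The labels do not say what the P number marks, so the block is given here only. Libraries that share a number deviated from their groups together, with r across genes of 0.444 for AXL shRNA with control shRNA and 0.45 for TP-0903 with control, against 0.171 to 0.309 for groups without a common number. The groups of control shRNA minus control and of AXL shRNA minus control share no number, so no block could be fitted there, and the 4 libraries of 1 comparison give no difference of effects.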
